A study of Rattus norvegicus with 24 samples.

Results

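In the rat urethra, 9 genes of the vascular endothelial growth factor (VEGF) and angiopoietin systems were followed after a simulated birth injury: the VEGF ligands Vegfa, Vegfb, Vegfc and Pgf, the angiopoietins Angpt1, Angpt2 and Angpt4, and the neuropilins Nrp1 and Nrp2. They were taken by symbol, with earlier results of these data known. Each symbol had a single row in the table of normalized gene counts, so the set held 9 of 32883 genes, and all 9 were among the 16287 genes with a mean normalized count of at least 2 that were tested. VEGF-A is the main driver of blood vessel growth and permeability and acts on endothelial cells through the receptors VEGFR1 (Flt1) and VEGFR2 (Kdr). Neuropilins bind both VEGF and the class 3 semaphorins that guide axons, so they stand between vessel growth and nerve growth. Angiopoietin-1 activates the endothelial receptor Tie2 (Tek) and steadies vessels, while angiopoietin-2 is released by activated endothelium and can oppose it.

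The series holds 24 urethras of female virgin Sprague-Dawley rats that were 12 weeks old at simulated vaginal delivery (SVD), a birth injury made by crushing the pudendal nerves and distending the vagina. An hour later the rats received saline, allogeneic mesoangioblasts (MABsallo, vessel-associated progenitors grown from the leg muscle of another rat) or the same kind of cells overexpressing VEGF (MABsallo-VEGF) by injection into the aorta, and the urethra was taken after 3d or 7d, with 4 samples in each of the 6 groups. The injected cells carried a lentiviral reporter with green fluorescent protein and luciferase, and MABsallo-VEGF were transduced with a vector in which the SFFV promoter drives VEGF165 cDNA together with a truncated CD34. The wild-type or VEGF OE genotype in the labels thus belongs to the injected cells, not to the host tissue. Of the 4 MABsallo-VEGF samples of 7d, replicates 6 and 7 are labelled as functionally recovered. Libraries were read at the 3ʹ end of transcripts, and it is not known whether transcripts of the vector were counted on rat Vegfa or Cd34.

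Libraries held 2170695 to 10166052 reads on genes, and 1 read stood for 1.67 to 9.23 normalized counts. The MABsallo 3d and MABsallo-VEGF 3d libraries held 2170695 to 4491900 reads, against 4851797 to 5249467 in saline 3d and 5244129 to 10166052 at 7d. Reads of mitochondrial genes made up 23.8 to 35.4% of the MABsallo 3d libraries and 15.7 to 39.1% of the MABsallo-VEGF 3d libraries, against 12.7 to 20.0% in saline 3d and 11.8 to 16.2% at 7d. On the first principal component of the 500 most variable genes, which held 70.7% of their variance, saline 3d replicate 6 lay at 54.6 while the other saline 3d samples lay between -52.3 and -6.43. MABsallo-VEGF 3d replicate 4 lay at 0.70 while the other 3 samples of its group lay between 57.3 and 75.2. Results that rest on these samples are given with and without them. Smooth muscle, striated muscle and epithelial markers were read in every group, as the tissue label implies. In such bulk tissue, fewer cells of a type and less RNA per cell cannot be told apart.

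Calls among the 9 genes were between days after injury. Nrp1, Angpt1 and Vegfb were higher at 3d than at 7d when the 3 treatments were averaged, by 1.09, 2.16 and 1.32 on the log2 scale, and Vegfa and Vegfc passed the adjusted p, not the fold threshold, with differences of 0.71 and 0.71. These 3 called genes of 9 stand beside 22.6% of all genes tested called in that contrast, and nothing particular to the set is read from the count. No gene of the set passed the test between treatments at 3d or at 7d. Between urethras that received MABsallo-VEGF and those given saline, Vegfa differed by -0.01 at 3d and -0.02 at 7d. Values below are normalized gene counts in the order of the replicate numbers, which for 3d are 6, 8, 9 and 10 in saline and 1 to 4 in both cell groups, and for 7d are 1, 2, 3 and 5 in saline, 7.2, 9, 11 and 13 in MABsallo, and 6, 7, 11 and 12 in MABsallo-VEGF.

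**Figure D1:**
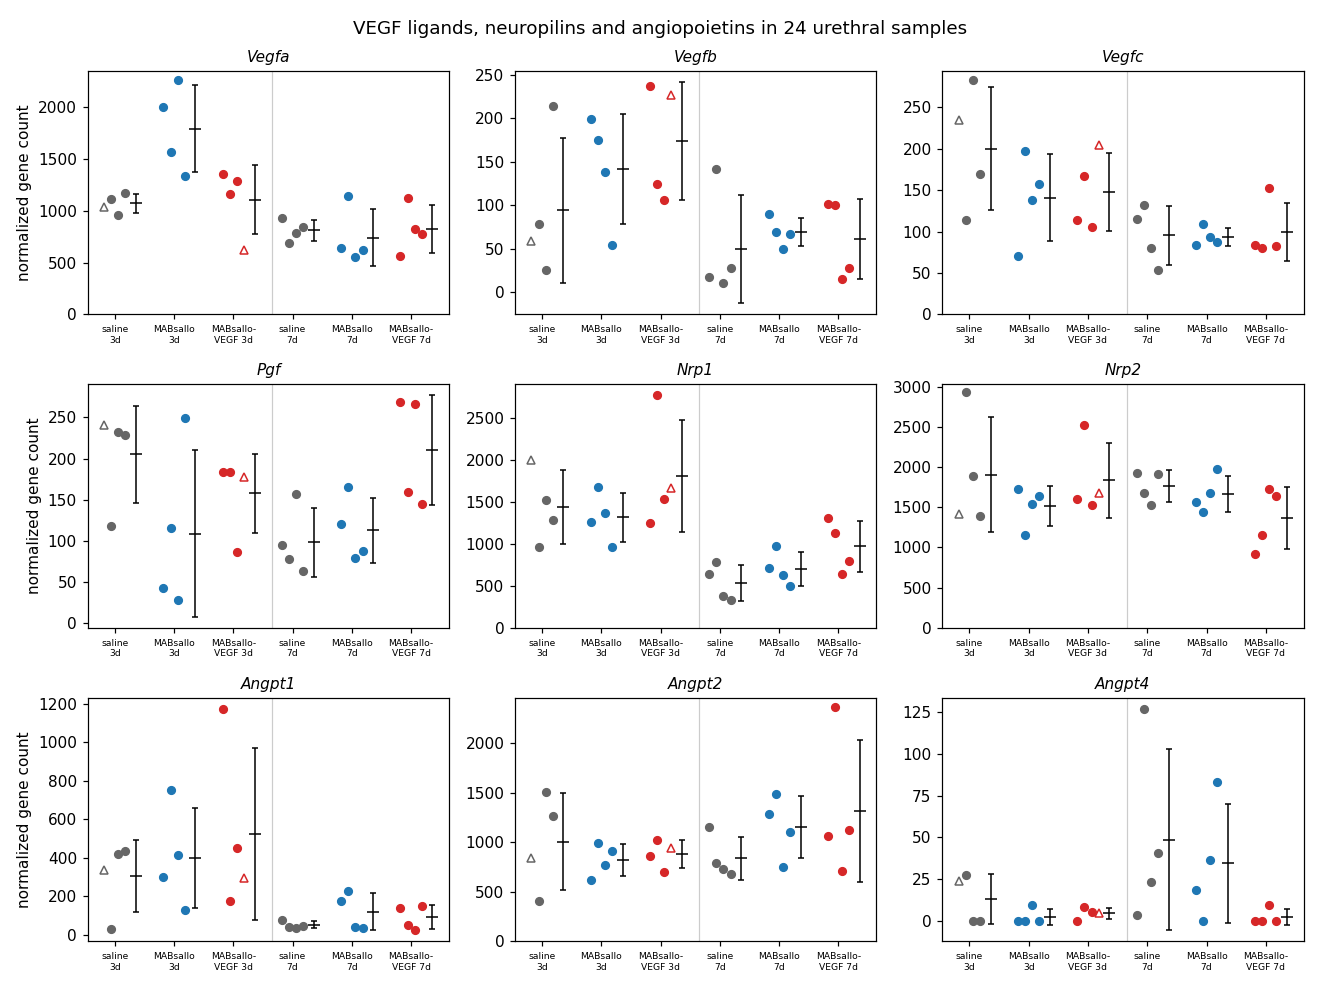
Normalized gene counts of the 9 genes in each sample (vertical axes, linear from 0 or just below) by treatment and day, with the mean and SD of each group of 4 samples as black bars. Open triangles mark saline 3d replicate 6 and MABsallo-VEGF 3d replicate 4, and the 3d points of Nrp1 and Angpt1 lie mostly above those of 7d.

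Vegfa encodes VEGF-A, the founding ligand of the family. At 3d its normalized counts were 1036, 1117, 958 and 1172 in saline, 2002, 1565, 2262 and 1334 in MABsallo, and 1352, 1167, 1292 and 619 in MABsallo-VEGF. At 7d they were 930.2, 687, 784 and 843 in saline, 638, 1146, 555 and 623 in MABsallo, and 562, 1121, 829 and 772 in MABsallo-VEGF. The 4 MABsallo 3d samples lay above all saline 3d samples and above all samples of 7d, and overlapped with MABsallo-VEGF 3d replicate 1 alone. Saline 3d also lay above saline 7d without overlap. The group means were 1071 ± 93.6 (SD, n = 4) in saline 3d, 1791 ± 419 in MABsallo 3d and 1107 ± 335 in MABsallo-VEGF 3d, against 811 ± 102, 740.4 ± 273 and 821 ± 230.5 in the same order at 7d. MABsallo-VEGF 3d replicate 4 was the lowest of its group at 619.

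To show what lies upstream of some of the genes that were higher at 3d than at 7d, the 250 bases before the annotated start were taken from RefSeq. The assembly was GRCr8, another build than the one used for the counts. An entry was found for 7 of the 9 genes, and none for Angpt1 and Angpt2. The windows of Vegfa (its upstream start, chr9:22452604-22452853, plus strand), Vegfb (chr1:213607153-213607402, minus strand) and Nrp1 (chr19:73256307-73256556, plus strand) are shown 5ʹ to 3ʹ, with each GC box, GGGCGG or its reverse complement CCGCCC, in capitals.
Vegfa: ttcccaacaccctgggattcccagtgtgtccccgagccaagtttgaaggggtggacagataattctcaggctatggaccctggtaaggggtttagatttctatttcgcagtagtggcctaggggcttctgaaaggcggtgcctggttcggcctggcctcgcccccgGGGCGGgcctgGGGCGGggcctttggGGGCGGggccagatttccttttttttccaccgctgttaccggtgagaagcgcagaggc
Vegfb: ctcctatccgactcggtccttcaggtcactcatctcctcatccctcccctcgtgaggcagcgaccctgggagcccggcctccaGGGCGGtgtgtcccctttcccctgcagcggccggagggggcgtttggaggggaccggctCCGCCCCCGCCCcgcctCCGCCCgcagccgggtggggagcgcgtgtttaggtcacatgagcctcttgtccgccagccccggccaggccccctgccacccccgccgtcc
Nrp1: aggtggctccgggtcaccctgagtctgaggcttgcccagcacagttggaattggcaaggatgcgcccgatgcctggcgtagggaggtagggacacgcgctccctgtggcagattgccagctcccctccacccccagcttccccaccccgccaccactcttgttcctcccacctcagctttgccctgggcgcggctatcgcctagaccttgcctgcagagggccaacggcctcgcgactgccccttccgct
The Vegfa window held 3 GC boxes, the nearest 58 bases before the start, and the Vegfb window held 4, of which a pair adjoin. The window of a second annotated Vegfa start (chr9:22460028-22460277) held 0, so the count depends on the start. The Nrp1 window held none, although its GC content of 66.4% was above the median of 51.2% over all 33469 windows, of which 30.5% held a GC box. None of the 3 windows shown held ACGTG, a form of the hypoxia response element core, on either strand, a motif that 16.6% of all windows held. The other form, GCGTG, was not counted. It occurs in the Vegfb window and, as its reverse complement CACGC, in the Nrp1 window. Sites beyond these 250 bases were not searched. These matches describe letters only and say nothing of binding.

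Vegfb encodes VEGF-B, a ligand of VEGFR1 best known from heart and muscle. Its 3d counts were 58.5, 78.4, 25.0 and 215 in saline, 199, 175, 138 and 54.2 in MABsallo, and 238, 125, 106 and 227 in MABsallo-VEGF. By 7d they were 16.9, 142, 10.1 and 28.3 in saline, 89.8, 69.5, 50.04 and 66.4 in MABsallo, and 102, 99.8, 15.5 and 28.4 in MABsallo-VEGF. The values spread widely within groups, and in MABsallo-VEGF alone the 4 samples of 3d lay above the 4 of 7d. The values rest on 3 to 61 reads per sample. Vegfc encodes VEGF-C, the main growth factor of lymphatic vessels. Normalized counts at 3d were 234, 114, 282 and 169 in saline, 71.0, 197, 138 and 157 in MABsallo, and 114, 167, 106 and 205 in MABsallo-VEGF. The 7d counts were 115, 132, 80.4 and 53.5 in saline, 83.6, 109, 93.4 and 87.2 in MABsallo, and 83.4, 79.9, 152 and 82.0 in MABsallo-VEGF. Saline 3d held the 2 highest samples, and the 7d groups had closely similar means of 93.4 to 99.3. Pgf encodes placental growth factor, which binds VEGFR1 and neuropilins. At 3d its normalized counts were 241, 118, 232 and 229 in saline, 42.6, 115, 27.7 and 249.5 in MABsallo, and 184, 183, 85.8 and 178 in MABsallo-VEGF. At 7d they were 94.7, 77.2, 157 and 62.9 in saline, 121, 166, 78.4 and 87.2 in MABsallo, and 268, 159.7, 267 and 145 in MABsallo-VEGF. Replicates 6 and 11 of MABsallo-VEGF 7d were the highest of all, and MABsallo 3d alone spanned 27.7, from 3 reads, to 249.5.

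Angpt1 encodes angiopoietin-1, the Tie2 agonist made by mural and other stromal cells. Its 3d counts were 334, 31.4, 422 and 433 in saline, 298, 749.5, 415 and 130.2 in MABsallo, and 1173, 175, 449 and 294 in MABsallo-VEGF. By 7d they were 77.8, 42.3, 36.8 and 47.2 in saline, 177, 225, 41.7 and 33.2 in MABsallo, and 141, 51.3, 24.8 and 148 in MABsallo-VEGF. In MABsallo-VEGF the 4 samples of 3d lay above the 4 of 7d, while in saline and MABsallo the days overlapped. Saline 3d replicate 8, at 31.4, lay among the samples of 7d. Angpt2 encodes angiopoietin-2, stored in endothelial cells. Normalized counts at 3d were 844, 404, 1508 and 1267 in saline, 618, 990.2, 775 and 911 in MABsallo, and 865, 1025, 696 and 944 in MABsallo-VEGF. The 7d counts were 1157, 787, 733 and 682 in saline, 1282, 1483, 747 and 1099.8 in MABsallo, and 1066, 2359, 711 and 1129 in MABsallo-VEGF. The groups overlapped, and the highest value of all belonged to MABsallo-VEGF 7d replicate 7, labelled as recovered. Angpt4 encodes angiopoietin-4, a little studied Tie2 ligand. At 3d its normalized counts were 24.1, 27.4, 0 and 0 in saline, 0, 0, 9.23 and 0 in MABsallo, and 0, 8.33, 5.04 and 4.45 in MABsallo-VEGF. At 7d they were 3.38, 127, 23.4 and 40.9 in saline, 18.6, 0, 36.7 and 83.0 in MABsallo, and 0, 0, 9.31 and 0 in MABsallo-VEGF. It stood at or below 3 reads, the limit of detection used here, in 16 of 24 samples, of which 10 were at 0. Saline 7d held 72 of its reads over 4 samples and MABsallo 7d 48, against 3 reads in MABsallo-VEGF 7d.

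Nrp1 encodes neuropilin-1, a co-receptor of VEGF-A on arterial endothelium and of semaphorin 3A on axons. Its 3d counts were 1997, 960.3, 1519 and 1284 in saline, 1257, 1674, 1366 and 966 in MABsallo, and 1244, 2775, 1539 and 1669.7 in MABsallo-VEGF. By 7d they were 643, 787, 382 and 333 in saline, 709, 980.1, 631 and 502 in MABsallo, and 1313, 1129.6, 642 and 791 in MABsallo-VEGF. In saline the 4 samples of 3d lay above all 4 of 7d. In MABsallo and MABsallo-VEGF the days overlapped by a single pair of values. The means at 3d were 1440 ± 436, 1316 ± 293 and 1807 ± 670 (SD, n = 4) in saline, MABsallo and MABsallo-VEGF, and at 7d 536 ± 215, 706 ± 202 and 969 ± 307. Nrp2 encodes neuropilin-2, found on veins, lymphatics and axons. Normalized counts at 3d were 1412, 2928, 1894 and 1394 in saline, 1732, 1159.8, 1542 and 1638 in MABsallo, and 1606, 2525, 1524 and 1683 in MABsallo-VEGF. The 7d counts were 1931, 1680.2, 1531 and 1915 in saline, 1564, 1440.4, 1675 and 1971 in MABsallo, and 921, 1161, 1732 and 1646 in MABsallo-VEGF. All groups overlapped, with saline 3d replicate 8 the highest and MABsallo-VEGF 7d replicate 6 the lowest.

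Each comparison was tested by limma on log2(normalized gene count + 1) in a single fit of the 6 groups, with Benjamini-Hochberg adjustment over all 16287 genes. Called genes are those with an adjusted p below 0.05 whose log2 fold change was above 1 or below -1. The p-values measure the spread between these samples. Whether the samples were processed in more than 1 batch is not given, and the days differed in depth and mitochondrial share as stated above. On the earlier day the treatments differed in these as well. Libraries of both cell-treated groups held fewer reads than those of saline. The mitochondrial share was higher in MABsallo than in saline without overlap, while MABsallo-VEGF overlapped with saline. The part of batch, depth and mitochondrial share was not tested, either between days or between cell-treated and saline groups.

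Averaged over the 3 treatments, a contrast chosen after the values had been seen, 3 of the 9 genes were called between 3d and 7d, against 22.6% of all genes tested. Nrp1 was higher at 3d by 1.09 (SE 0.18, limma adjusted p = 3.79e-05), and higher in each treatment. Its difference stayed between 1.01 and 1.16 with each sample left out in turn. It was 0.95 after scaling to the same total, 0.9965 with TMM scaling, 0.98 under sample quality weights and 0.98 with edgeR, short of the fold threshold, with adjusted p of at most 0.000362. Angpt1 was higher at 3d by 2.16 (SE 0.46, limma adjusted p = 0.000642), which was called with every sample left out and under all 11 other settings. Vegfb was higher at 3d by 1.32 (SE 0.42, limma adjusted p = 0.0143), called with every sample left out, but it was 0.79 with an adjusted p of 0.116 after quantile normalization and the adjusted p was 0.0505 under quality weights. Without saline 3d replicate 6 and MABsallo-VEGF 3d replicate 4 the 3 differences were 1.04, 2.14 and 1.30, each still called.

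Vegfa (0.71, SE 0.15, limma adjusted p = 0.000569) and Vegfc (0.71, SE 0.22, limma adjusted p = 0.0126) were higher at 3d with differences below the fold threshold. That of Vegfc missed the threshold after quantile normalization, at 0.29 with an adjusted p of 0.321, and after scaling to the same total, at 0.58 with 0.0538. The other 4 genes did not pass: Pgf differed by 0.06 (95% interval -0.55 to 0.67), Nrp2 by 0.12 (-0.16 to 0.40), Angpt2 by -0.26 (-0.68 to 0.16) and Angpt4 by -1.44 (-3.12 to 0.23). The median of the 9 differences was 0.71, beside 0.03 over all genes tested. Markers of other cell types moved with the day as well. Of the 6 adipocyte markers, all were called lower at 3d, with sums of 575 to 23933 at 3d and 1441 to 73547 at 7d. Median adipocyte sums were 3308 at 3d and 43415 at 7d in saline, 1942 and 21523 in MABsallo, and 2884 and 3070 in MABsallo-VEGF. Of 7 smooth muscle markers 3 were called lower, among them Acta2. Also called lower were 4 of 7 urothelial and squamous markers, with 1 higher, 4 of 6 mast cell markers, 3 of 4 erythroid markers, 1 of 7 macrophage markers and 1 of 6 lymphatic markers, with 2 higher. Of 7 pericyte markers 1 was called higher, and of the endothelial, striated muscle, fibroblast, neutrophil and Schwann cell markers 0 were called. In this contrast 4.51% of all genes tested were called lower and 18.1% higher. With single samples left out the lower counts ran from 2 to 5 for urothelial and squamous markers and from 1 to 3 for erythroid markers. They ran from 3 to 4 for smooth muscle and from 0 to 1 for macrophage and Schwann cell markers. The erythroid count was 1 without saline 3d replicate 6 and 3 without both samples that stood apart. The part of these cell types in the differences was not tested.

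Within single treatments fewer samples stood behind each call. In saline, Nrp1 was the 1 gene of the set called, higher at 3d by 1.46 (SE 0.31, limma adjusted p = 0.0154), against 3.19% of all genes. That call was lost without saline 3d replicate 6 or saline 7d replicate 3 or 5, with adjusted p up to 0.0860, and in a fit of these groups alone at 0.125. DESeq2 on the recovered reads called Angpt1 and Vegfc beside it. In MABsallo, Vegfa was the 1 gene called, higher at 3d by 1.31 (SE 0.26, limma adjusted p = 0.000755), against 23.0% of all genes. It was called with each sample left out and under every other setting tried, and its 4 samples of 3d lay above its 4 of 7d. Leaving out MABsallo 3d replicate 4 added Angpt1 and Nrp1, and leaving out MABsallo 7d replicate 9 added Angpt4, Angpt1 and Nrp1. In MABsallo-VEGF, Angpt1 was the 1 gene called, higher at 3d by 2.47 (SE 0.80, limma adjusted p = 0.0320), against 15.3% of all genes. Its days did not overlap, but the call was lost without MABsallo-VEGF 3d replicate 1 or 3 or 7d replicate 7 or 11, with adjusted p up to 0.118, and after quantile normalization or scaling to the same total. Nrp1 was called there without 3d replicate 1 or 7d replicate 6, at 1.046 and 1.053. In the fit of all samples Nrp1 passed the adjusted p, not the fold threshold, in MABsallo (0.91, limma adjusted p = 0.0279) and MABsallo-VEGF (0.89, limma adjusted p = 0.0449).

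**Figure D2:**
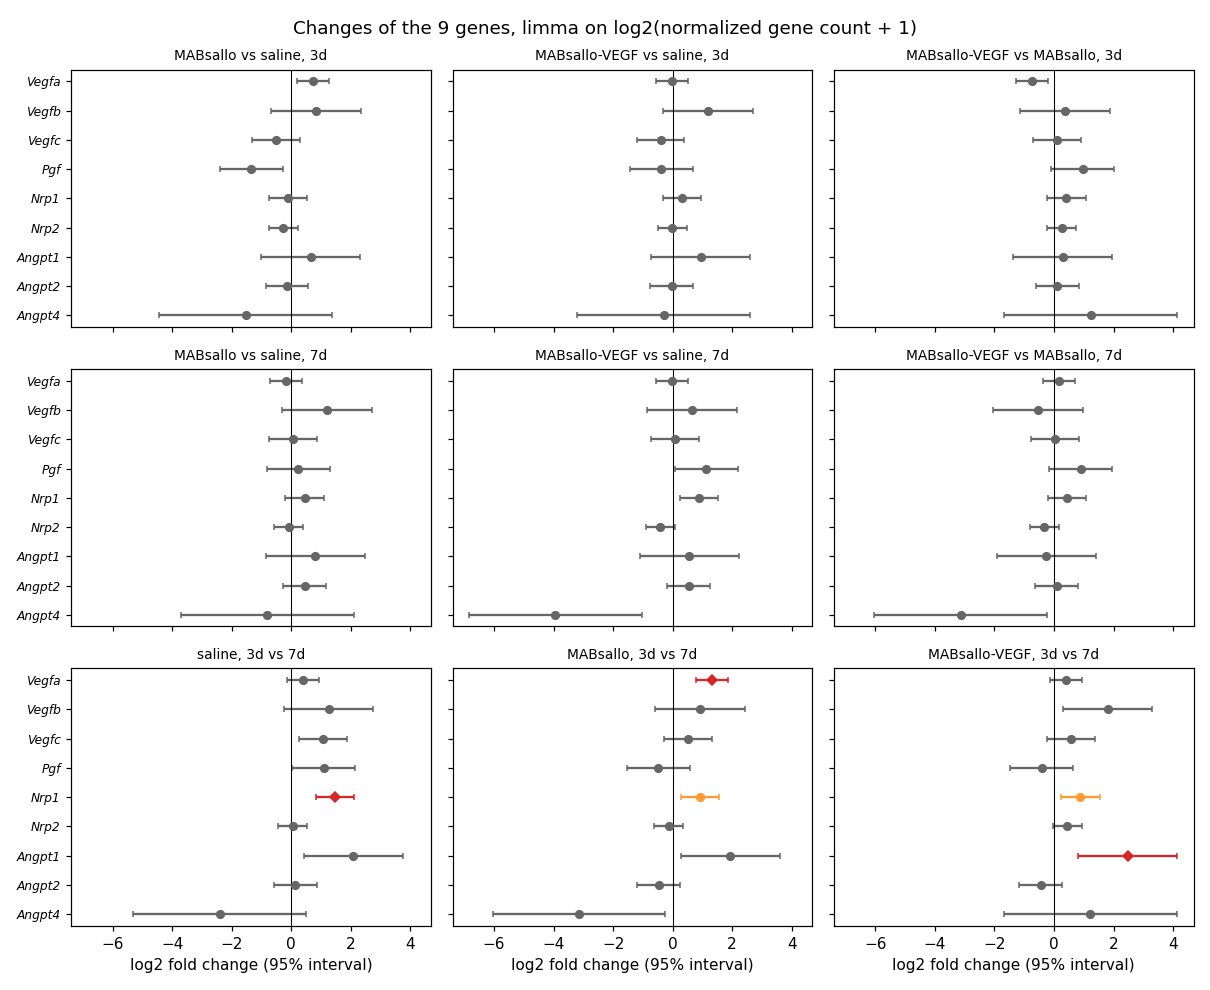
Log2 fold changes of the 9 genes (points) with 95% intervals (bars) for each comparison of treatments at 3d (top), at 7d (middle) and of days within a treatment (bottom), where values above 0 mean higher in the group named first. Red diamonds mark the 3 called genes, Nrp1 in saline, Vegfa in MABsallo and Angpt1 in MABsallo-VEGF, and orange points mark Nrp1, which passed the adjusted p alone.

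Between treatments at 3d, limma called 0 of the 9 genes. DESeq2 and edgeR on the recovered reads also called 0 of them in each comparison of treatments, at 3d and at 7d. MABsallo against saline called 12.3% of all genes, and within the set 2 genes had an unadjusted p below 0.05, Vegfa and Pgf. Vegfa differed by 0.72 (SE 0.26, limma adjusted p = 0.0629), with the 4 MABsallo samples above the 4 saline samples. Without the 2 samples that stood apart the adjusted p was 0.0476 for a difference of 0.70. Pgf differed by -1.35 (SE 0.51, limma adjusted p = 0.0738). It was called without MABsallo 3d replicate 4, at -1.91 with an adjusted p of 0.0113, and after quantile normalization, scaling to the same total or quality weighting. In the other 7 genes the differences ran from -1.53 in Angpt4 to 0.84 in Vegfb. The part of depth and mitochondrial share in these differences was not tested.

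MABsallo-VEGF against saline at 3d called 0.0307% of all genes, and none of the 9 had an unadjusted p below 0.05. Vegfa differed by -0.01 (95% interval -0.55 to 0.53), and by 0.23 without the 2 samples that stood apart. Against MABsallo, Vegfa differed by -0.73 (95% interval -1.26 to -0.19, limma adjusted p = 0.662), in a comparison that called 0.00614% of all genes. With MABsallo-VEGF 3d replicate 4 left out the Vegfa difference was -0.47. The comparisons with saline and with MABsallo share samples and are not independent.

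At 7d each of the 3 comparisons called 0% of all genes, and so 0 of the 9. At an unadjusted p below 0.05 limma gave 1014 of 16287 genes for MABsallo against saline, 1033 for MABsallo-VEGF against saline and 452 for MABsallo-VEGF against MABsallo, with 0, 3 and 1 of the 9 genes among them. In MABsallo-VEGF against saline these were Nrp1 at 0.89 (95% interval 0.25 to 1.53, limma adjusted p = 0.614), Pgf at 1.12 (0.06 to 2.18, limma adjusted p = 0.760) and Angpt4 at -3.94 (-6.84 to -1.04, limma adjusted p = 0.630). The last depends on the count of 1 added before the logarithm, since 3 of the 4 MABsallo-VEGF samples were at 0 reads. Vegfa differed by -0.02 (-0.55 to 0.52) from saline and by 0.17 (-0.37 to 0.70) from MABsallo.

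Whether a treatment difference itself changed between 3d and 7d was tested by interaction terms, which called 0%, 0% and 0.00614% of all genes for MABsallo against saline, MABsallo-VEGF against saline and MABsallo-VEGF against MABsallo. None of the 9 genes was called, while 2, 1 and 2 of them had an unadjusted p below 0.05. For Vegfa in MABsallo against saline the term was 0.90 (SE 0.37, limma adjusted p = 0.294), and for Pgf the term was -1.58 (SE 0.72, limma adjusted p = 0.342).

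Among the MABsallo-VEGF samples of 7d, both labelled as recovered had higher Nrp1 than the other pair, 1313 and 1130 against 642 and 791, and lower Nrp2, 921 and 1161 against 1732 and 1646. Vegfb was 101.6 and 99.8 against 15.5 and 28.4, the smaller pair from 5 and 9 reads. Angpt4 was at 0 in both recovered samples and in replicate 12, and at 9.31, from 3 reads, in replicate 11. In Vegfa, Vegfc, Pgf, Angpt1 and Angpt2 the values of the recovered pair overlapped with those of the other pair. With a pair on each side these values are a description, with no test, and a gene can easily separate the pairs by chance.

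The receptors of these ligands are read mainly from endothelial cells. None of Flt1, Kdr, Flt4 (the VEGF-C receptor VEGFR3), Tek and Tie1 (the partner of Tie2) was called over the 3 treatments between days, although Kdr passed the adjusted p at 0.40 (limma adjusted p = 0.0373). In saline, Kdr was 1054, 1254, 989.9 and 1101 at 3d against 582, 463, 656 and 252 at 7d, without overlap, and was called at 1.25 (SE 0.27, limma adjusted p = 0.0156). That call was lost without saline 3d replicate 6 or saline 7d replicate 5, with adjusted p of 0.0703 and 0.0727. In MABsallo, Kdr differed between days by 0.18 (SE 0.27), and in MABsallo-VEGF by -0.22 (SE 0.27). The interaction terms of Kdr against saline were not called. They were -1.07 (SE 0.38, limma adjusted p = 0.242) for MABsallo and -1.47 (SE 0.38, limma adjusted p = 0.474) for MABsallo-VEGF.

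At 3d, Tie1 was 1153, 3853, 1683 and 1365 in saline against 533, 1089, 554 and 787 in MABsallo, all 4 below the saline samples. It was called lower at -1.33 (SE 0.33, limma adjusted p = 0.0142), the 1 receptor of 5 called, beside 12.3% of all genes. The call was lost without saline 3d replicate 8 (-0.96, adjusted p 0.0757) or MABsallo 3d replicate 1 (-1.20, adjusted p 0.0529). In MABsallo-VEGF, Tie1 was 665, 1533, 504 and 1086 and differed from saline by -1.05 (SE 0.33, limma adjusted p = 0.124). That difference was called without the 2 samples that stood apart, at -1.37 with an adjusted p of 0.0160. Markers of several cell types moved with it. Of endothelial markers, 4 of the 8 tested, Tie1 among them, were called lower in MABsallo than in saline at 3d, with summed levels of 3976 to 8354 against 7765 to 14236. The others were Emcn (-1.37), Cldn5 (-1.18) and Esam (-1.08), and 0 of the 4 were called without saline 3d replicate 8 or MABsallo 3d replicate 1. In the same comparison 5 of 6 mast cell, 3 of 6 fibroblast, 3 of 7 macrophage and 2 of 6 lymphatic markers were called lower, while 1 each of the pericyte, striated muscle and epithelial markers was called higher. Of all genes tested, 2.86% were called lower there and 9.4% higher. Fibroblast marker sums were 55196 to 304582 in MABsallo against 345045 to 523811 in saline, and mast cell sums 235 to 376 against 589 to 2207, both without overlap. With single samples left out these counts ran from 3 to 5 for mast cells, 0 to 5 for fibroblasts, 1 to 5 for macrophages and 0 to 2 for lymphatic cells. The part of these cell types, of depth and of mitochondrial share in the Tie1 difference was not tested.

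Cd34, a surface protein of endothelial and progenitor cells, was followed because a truncated form was part of the VEGF vector. It was 469, 1373, 803 and 174 in MABsallo 3d and 248.7, 783, 373 and 57.9 in MABsallo-VEGF 3d, and 3.15 to 18.6 in all samples of 7d. In saline 3d it was 771, 15.7, 32.2 and 21.1, the first value from replicate 6. Between MABsallo-VEGF and MABsallo, whose cells carry no CD34 vector, Cd34 differed by -1.10 (95% interval -3.11 to 0.92, limma adjusted p = 0.906). Whether vector transcripts had a part in these values was not tested. Across the 24 samples Cd34 had an r of 0.95 with the first principal component, built from genes that may include Cd34 itself. Its call in MABsallo over saline at 3.31 (SE 0.98, limma adjusted p = 0.0273) was lost with any of saline 3d replicates 8, 9 and 10 or MABsallo 3d replicates 1, 2 and 3 left out, and DESeq2 gave 1.74 with an adjusted p of 0.167. Without saline 3d replicate 6 the difference was 4.57 with an adjusted p of 0.000957. MABsallo-VEGF differed from saline by 2.21 (SE 0.98, limma adjusted p = 0.232), and was called higher at 3.48 with an adjusted p of 0.0139 without saline 3d replicate 6, and at 4.18 with 0.00124 without both samples that stood apart.

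**Figure D3:**
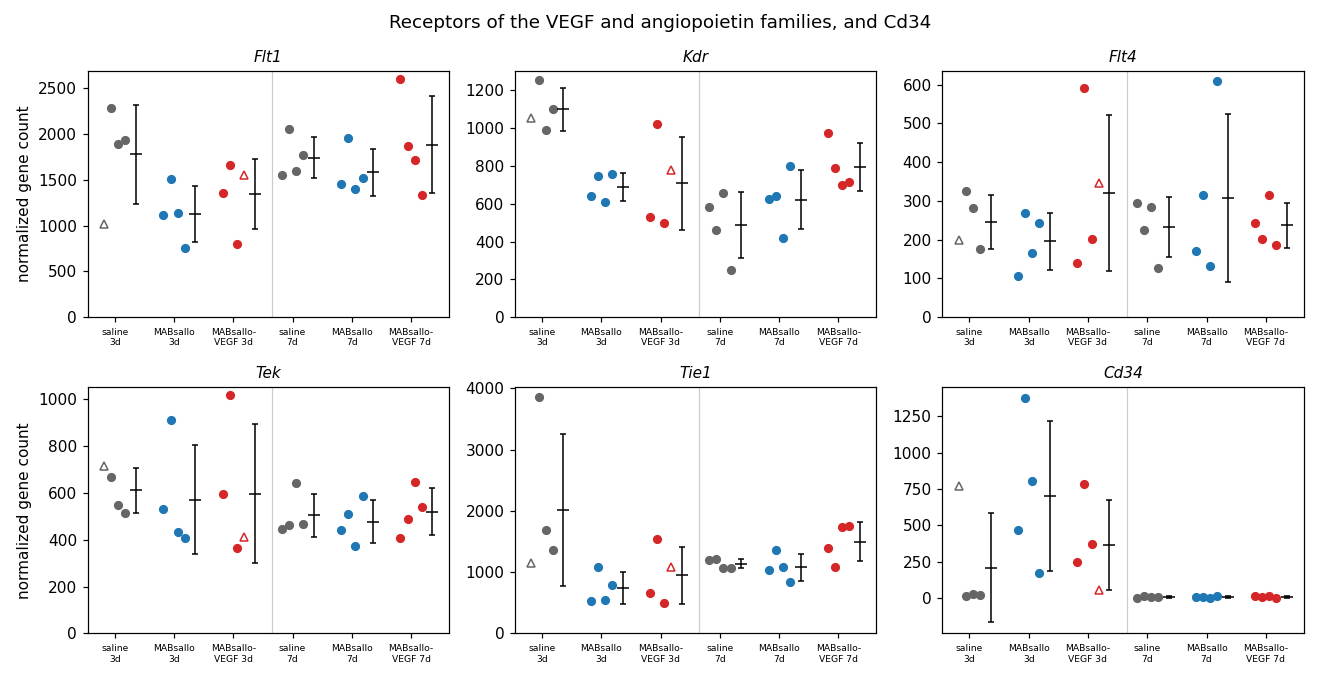
Normalized gene counts of the 5 receptors and of Cd34 in each sample (vertical axes, linear) by treatment and day, with mean and SD of each group of 4 as black bars and the same open triangles for the 2 samples that stood apart. Kdr in saline and Tie1 between saline and MABsallo at 3d do not overlap, and the saline 3d triangle of Cd34 lies with the cell-treated samples.

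Semaphorins and plexins share the neuropilins as co-receptors. Of 12 such genes, 4 were called higher at 3d over the 3 treatments and 0 lower, with a median of 0.89 beside 0.03 over all genes, of which 18.1% were called higher. They were Plxna4 (4.06, SE 0.64), Sema3a (3.90, SE 0.49), Sema3d (3.31, SE 0.45) and Plxna1 (2.58, SE 0.39), each with a limma adjusted p of at most 2.43e-05. With single samples left out the count was 4 to 6. In each 7d group, 3 of the 12 genes stood at 3 reads or fewer in all samples. Fold changes of such genes depend on the count of 1 added before the logarithm. Sema3a, the classical repellent ligand of neuropilin-1, was 3.52 to 21.4 in saline 3d and 0 to 4.98 in saline 7d. In MABsallo it was 49.7 to 86.8 at 3d and 0 to 4.15 at 7d, and in MABsallo-VEGF 17.8 to 91.7 and 0 to 8.56, from at most 16 reads in any sample. Between MABsallo and saline at 3d, Plxna4, Sema3a and Plxna1 were called higher, beside 9.4% of all genes called higher there. The count of the list fell to 0 or 1 without any one of saline 3d replicates 8, 9 and 10 or MABsallo 3d replicates 1, 2 and 3.

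Hypoxia is a known inducer of Vegfa in many tissues. Of 13 hypoxia-induced targets tested, 0 were called higher at 3d over the 3 treatments and 4 lower, among 4.51% of all genes called lower. They were the vasodilator peptide gene Adm (-2.03, SE 0.35), the glycolytic regulator Pfkfb3 (-1.88, SE 0.27), Ankrd37 (-1.28, SE 0.42) and Higd1a (-1.09, SE 0.16), each with a limma adjusted p of at most 0.0159. The median of the 13 was -0.86, and Vegfa differed by 0.71. Whether hypoxia had a part in the Vegfa difference was not tested. Without saline 3d replicate 8 the counts were 1 higher and 5 lower. Of 10 genes of oxygen sensing, 4 were called higher at 3d, namely Egln1, Arnt, Hif1an and Hif3a, and 0 lower, beside 18.1% of all genes called higher, with the same count for every sample left out.

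For the next 3 lists, 18.1% of all genes were called higher and 4.51% lower in the same contrast. Of 14 other angiogenic ligands, 1 was called higher at 3d over the 3 treatments, the membrane ligand Efnb2 (1.503, SE 0.38, limma adjusted p = 0.00293), and 1 lower, the lipase inhibitor gene Angptl4 (-1.62, SE 0.47, limma adjusted p = 0.00712). Vegfd, the sister gene of Vegfc, was called lower at 3d in MABsallo (-1.51, SE 0.49, limma adjusted p = 0.0230), in a list whose count of lower genes there was 0 to 2 with single samples left out. Between days in MABsallo, 6.05% of all genes tested were called lower at 3d. At 7d Vegfd was 174 to 319 in MABsallo-VEGF against 544 to 734 in saline, without overlap, a difference of -1.48 (SE 0.49, limma adjusted p = 0.576). Of 10 endothelial sprouting genes tested, 2 were called higher at 3d (Aplnr and Jag1) and 2 lower (Unc5b and Nos3), and 9 single samples each took at least 1 of these calls away. Of 10 regulators of angiogenesis, mostly inhibitors, 3 were called higher at 3d and 0 lower. They were Thbs1 (4.61, SE 0.77), Vash1 (2.10, SE 0.65) and Vash2 (1.08, SE 0.24), with limma adjusted p of at most 0.0114. With single samples left out the counts ran from 2 to 3 higher and from 0 to 1 lower. Without MABsallo 3d replicate 4, or without both samples that stood apart, 2 were called higher and 1 lower.

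Across the 24 samples the log2 values of Nrp1 correlated with those of Angpt1 (Pearson r = 0.71), Vegfc (0.64) and Vegfb (0.62). Vegfa correlated less with each of these, at 0.45, 0.54 and 0.35 for Nrp1, Angpt1 and Vegfb. Nrp2 and Nrp1 had an r of -0.14. The points share days, depth and the leading component, with which Vegfa (r = 0.76), Angpt1 (0.75), Nrp1 (0.72) and Vegfb (0.56) correlated, against -0.12 for Nrp2, -0.14 for Angpt2 and -0.19 for Pgf, so no test was made. Among 11169 genes with a mean of at least 50, Enpp2 was most like Angpt1 (r = 0.93), followed by Tmco1 and Filip1l. Plekhg1 was most like Nrp1 (0.90), followed by Zeb2 and Chp2, and Inf2, Fat4 and Shroom4 were most like Vegfa (0.85 to 0.86). Angpt4 followed the adipocyte genes Plin1 (0.89) and Cidec (0.86). Plin1, the perilipin of fat droplets, was 271 to 2484 in saline 7d and 3.15 to 217 in MABsallo-VEGF 7d, the groups in which Angpt4 held 72 and 3 reads. Pgf was most like Ostm1 (0.78), Erg, an endothelial transcription factor (0.74), and Naglu. The closest genes were Aebp2, Nlrp1a and Rbm19 for Vegfb (0.72 to 0.79), and Eva1b, Scpep1 and Nfatc4 for Vegfc (0.77 to 0.82). They were Chi3l1, Ubash3b and Hcn4 for Nrp2 (0.67 to 0.72), and AABR07072853.5, Ppp1r12c and Mt3 for Angpt2 (0.79 to 0.83).

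**Figure D4:**
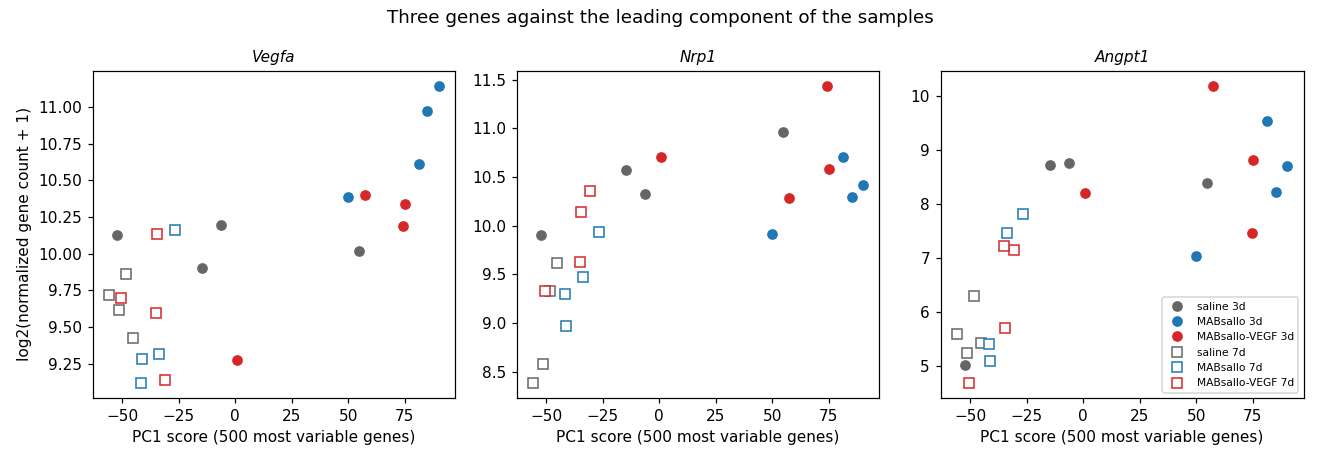
Log2 values of Vegfa, Nrp1 and Angpt1 (vertical axes) in each of the 24 samples against the first principal component of the 500 most variable genes (horizontal axis), with filled circles for 3d and open squares for 7d. The 7d samples lie at the left, the MABsallo 3d samples at 49.8 to 90.1 on the right, and saline 3d replicate 6 lies at 54.6 among the cell-treated samples.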

How the data were processed

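Urethral RNA of 24 rats was sequenced at the 3ʹ end of transcripts (QuantSeq). The authors aligned reads to Rnor6.0 with HISAT2, discarded reads that mapped to several places, counted the rest per gene with HTSeq and scaled each library by its DESeq2 size factor. The deposited values are this normalized signal, from which whole reads were recovered for 100% of values (tolerance 0.01). Groups followed the labels. The MABsallo 3d titles name that group, but their sample codes do not begin with the day as those of the other groups do, and the reason is not given.

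The main test was limma 3.58.1 (R 4.3.3, trend, two-sided) on log2(value + 1) over genes with a mean of at least 2, in 1 fit of 6 groups. Alternatives were another pseudocount, other filters, quantile, same-total and TMM scaling, sample weights, only the groups compared, DESeq2 1.42.0 and edgeR 4.0.16 on recovered reads, and samples left out. The contrast of days over the 3 treatments was added after the data had been seen. The members and lists were chosen with earlier results of these data known. Named genes were the 9 members, 5 receptors, Cd34, up to 4 called genes of each list with the largest change, and the 3 genes most correlated with each member, of which 1 is not reported here. Counting with strand, and so overlap with antisense genes, was not checked. The pipeline was tested on simulated data.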

Additional observations from a re-analysis of the deposited data

Results flagged for a closer look

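In 8 of 54 sets of 4 samples, 1 for each gene and group, a single sample lay far from the other 3, with a gap beyond Dixon's critical share of the range of the set. Chance flags about 1 set in 20. Vegfa was 1145.68 in MABsallo 7d replicate 9 and 555.49 to 638.08 in the others of its group. Vegfb was 141.89 in saline 7d replicate 2 and 10.05 to 28.3 in the others. Vegfc was 152.06 in MABsallo-VEGF 7d replicate 11 and 79.87 to 83.43 in the others. Pgf was low at 117.59 in saline 3d replicate 8, against 228.74 to 241.03, and at 85.76 in MABsallo-VEGF 3d replicate 3, against 178.1 to 183.84. Nrp2 was 2525.33 in MABsallo-VEGF 3d replicate 2 and 1523.59 to 1683.08 in the others. Angpt4 was 9.23, from 1 read, in MABsallo 3d replicate 3, and 9.31, from 3 reads, in MABsallo-VEGF 7d replicate 11, with all others of both groups at 0. Where 3 samples are at 0 any read in the fourth sets it apart in this way, so the chance rate does not apply to these 2 sets.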

How the results depend on the processing

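Counts of called members changed as follows, and the cause was not tested. MABsallo against saline at 3d gave 1 in place of 0, Pgf, after quantile normalization, scaling to the same total and sample quality weighting. MABsallo-VEGF against saline at 7d gave 1, Angpt4, under quality weights. Saline 3d against 7d gave 5 under quality weights, 3 with DESeq2, 2 with edgeR, 0 with only the groups compared and 0 with both samples that stood apart left out. MABsallo 3d against 7d gave 2 after quantile normalization and 2 with DESeq2. MABsallo-VEGF 3d against 7d gave 0 after quantile normalization and 0 after scaling to the same total. With single samples left out the counts ran from 0 to 1 for MABsallo against saline at 3d, 0 to 3 in saline between days (3 without saline 3d replicate 8), 1 to 4 in MABsallo, 0 to 2 in MABsallo-VEGF and 3 to 4 over the 3 treatments (4 without MABsallo 7d replicate 9, which added Angpt4), and were 0 to 0 elsewhere.

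Over all genes, MABsallo against saline at 3d called 1997 genes and 11 with only the groups compared. MABsallo-VEGF against saline at 3d called 5, but 181 with a pseudocount of 5, 397 with DESeq2, 1497 under quality weights, 2214 with both samples left out and 0 or 1 with edgeR, same-total and quantile scaling, the higher filter or only the groups compared. Saline 3d against 7d called 520, against 1386 with DESeq2, 988 with edgeR, 1852 under weights, 31 with both samples left out and 5 with only the groups compared. At 7d the 3 comparisons called 0 genes, and 0, 26 and 4 with DESeq2, 0 each with edgeR and 8, 147 and 3 under weights. The interactions against saline called 0 and 0, but 78 and 1 with DESeq2, 367 and 376 under weights, and 579 and 585 with both samples left out. The median over all genes for days over the 3 treatments was 0.03, and -0.19 after quantile normalization, -0.09 after scaling to the same total and -0.05 with TMM.

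For MABsallo-VEGF against MABsallo at 3d the numbers 1 to 4 recur in both groups, but same-numbered samples correlated at 0.222, 0.151, 0.073 and 0.254, not above 0.1 in every pair, and differently numbered ones at -0.225 to 0.2. Replicate 3 of neither group correlated best with its own number, so pairing was not taken as given. With a replicate block 0 members and 1 gene in all were called, as without it. Depth limits Angpt4 most, with 3 or fewer reads in 16 samples.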
